A study of Mus musculus with 9 samples.

Results

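The 10 genes described here, Gsta1, Gsta3, Gsta4, Gstp1, Gstp2, Gstm1, Gstt1, Gsto1, Mgst1 and Mgst3, encode glutathione transferases and were taken by symbol from a table of 18062 genes measured in white gastrocnemius of Gaa knock-out and wild-type mice. They were picked with earlier values of these same libraries known, from this same comparison, so their differences between the genotypes are given as a description, without a test. Of the 10 genes, 9 had a mean level of at least 0.5 RPKM (read counts scaled to transcript length and to library size) over the 9 libraries and so entered the fit across all genes; Gsta3 lay under that filter.

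RNA sequencing was done on white gastrocnemius, the region of this calf muscle made largely of fast glycolytic fibres. Gaa encodes acid alpha-glucosidase, which breaks down glycogen in lysosomes, and its loss causes Pompe disease. The knock-out group held 5 libraries from mice aged 5 months, and the wild-type group held 2 libraries from mice aged 5 months and 2 from mice aged 6 months. The knock-out allele carries a disrupted exon 6, with loxP sites in introns 5 and 6, in an inbred colony kept by mating brothers with sisters on a mixed BL6/129j background; the wild-type mice are also labelled as mixed background. The value table names the libraries ko1 to ko5 and wt1 to wt4 and does not show which wild-type library came from which age, so the wild-type libraries formed 1 group and no comparison at matched age was made. Since the labels number libraries without naming mice, a p-value here reflects only how far the libraries of a group lie apart, which may be technical.

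Gaa itself averaged 3.44 ± 0.204 RPKM in knock-out libraries and 49.4 ± 4.47 RPKM in wild-type libraries (SD, n = 5 and 4), a log2 difference of -3.80 (two-sided exact permutation test over 126 splits, p = 0.016, the smallest these splits can give). Estimated depth was 17.55 to 37.25 reads per RPKM of a 1 kb transcript in knock-out libraries and 37.05 to 64.4 in wild-type libraries, with ko3 the shallowest. For the marker counts that follow, a call is an adjusted p below 0.05 in the fit across all genes. By that measure 37.0% of all genes tested were called higher and 14.8% lower. The 9 markers of skeletal muscle fibres summed to 87040 to 95740 RPKM in knock-out libraries and 81660 to 87680 RPKM in wild-type libraries. Of these 9, 2 were called higher. Macrophage markers summed to 76.3 to 128.6 RPKM in knock-out libraries and 31.4 to 41.1 RPKM in wild-type libraries, without overlap, and 10 of the 11 were called higher. Fibroblast markers summed to 298 to 398 RPKM in knock-out libraries and 197 to 288 RPKM in wild-type libraries. Of these 8, 3 were called higher, a share near that of all genes. Col1a1, Col1a2, Col3a1, Pi16 and Dpt were not called. Endothelial markers summed to 25.8 to 45.8 RPKM in knock-out libraries and 35.9 to 58.7 RPKM in wild-type libraries, with 5 of 8 called lower. Of 6 adipocyte markers 3 were called lower, and their sums overlapped at 146 to 219 RPKM in knock-out and 170.3 to 242 RPKM in wild-type libraries. None of the 3 Schwann cell markers tested was called. Of the hepatocyte markers only Cyp2e1 was tested, and it was not called. No neutrophil marker passed the filter, so none was tested. Neutrophil markers summed to at most 0.639 RPKM in the knock-out and 1.98 RPKM in the wild type. Schwann cell markers summed to 9.25 to 26.9 RPKM in knock-out and 10.3 to 31.2 RPKM in wild-type libraries. Hepatocyte markers summed to 7.12 to 13.7 RPKM in knock-out and 4.49 to 16.3 RPKM in wild-type libraries, nearly all of it Cyp2e1, at 6.87 to 13.5 RPKM in knock-out and 4.31 to 16.1 RPKM in wild-type libraries. Alb, a defining marker of hepatocytes, reached at most 0.151 RPKM in knock-out and 0.136 RPKM in wild-type libraries. In bulk tissue, more cells of a type and more RNA per cell cannot be told apart, and the part of these other cell types in the transferase values was not tested.

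Glutathione transferases join the tripeptide glutathione to electrophilic compounds, which makes them water-soluble and ready for export, and several also reduce organic peroxides. The cytosolic enzymes fall into classes named by Greek letters, among them alpha, mu, pi, theta and omega, while the microsomal ones are membrane proteins of a separate superfamily called MAPEG. Many of them are best known from liver, where the transcription factor Nrf2, acting through antioxidant response elements, raises several alpha, mu and pi class genes.

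Sequence bears on these values first, because several of the genes have near-identical copies. Over 50-base windows of the transcripts (GENCODE annotation of GRCm38), 89.7% of the windows of Gsta1 also occurred in another gene, mostly in Gm3776 (82.9%) and otherwise in Gsta2 or Gm10639. For Gstp1 the share was 62.3%, all of it found in Gstp2, and for Gstp2 it was 72.6%, with 64.3% found in Gstp1. Gstm1 shared 23.1% of its windows, mostly with the pseudogene Gstm2-ps1. Gsta3, Gsta4, Gstt1, Gsto1, Mgst1 and Mgst3 shared none. The pi class pair has coding sequences of 633 bases that differ at 12 positions (98.1% identity). Coding bases 1 to 90 of the pair (GRCm38, chromosome 19, minus strand) are shown because they hold 6 of these positions, in capitals, where a read can be told apart:
Gstp1: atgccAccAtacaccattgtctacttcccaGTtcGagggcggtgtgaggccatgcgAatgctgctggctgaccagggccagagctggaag
Gstp2: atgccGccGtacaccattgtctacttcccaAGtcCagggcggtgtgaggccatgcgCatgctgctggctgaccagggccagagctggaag
Gsta1 and Gsta2 differ at 14 of 669 compared coding bases (97.9% identity). Coding bases 578 to 667 (GRCm38, chromosome 9, Gsta1 on the plus and Gsta2 on the minus strand) are shown for the same reason, with the 6 differing positions in capitals:
Gsta1: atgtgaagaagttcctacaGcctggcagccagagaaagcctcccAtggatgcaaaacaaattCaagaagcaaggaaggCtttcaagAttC
Gsta2: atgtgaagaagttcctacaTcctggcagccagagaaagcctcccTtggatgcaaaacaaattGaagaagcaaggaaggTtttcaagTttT
Values of Gsta1, Gstp1, Gstp2 and Gstm1 therefore depend on how reads that match several copies were shared out, which is not given in the sources used here.

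Among the alpha class genes, Gsta1 was near 0 in wild-type muscle and present in every knock-out library. Its levels were 2.45, 3.10, 4.68, 3.51 and 3.43 RPKM in ko1 to ko5, against 0.0259, 0.0106, 0.0364 and 0.0730 RPKM in wt1 to wt4. The groups did not overlap, and even the lowest knock-out library lay far above the highest wild-type one. In estimated reads these values stand for 68.6 to 114 reads in each knock-out library and for 0.3 to 3.0 reads in each wild-type library. Pooled and scaled for depth, 447 estimated knock-out reads against 6 wild-type reads gave a ratio of 89.7. With so few wild-type reads the size of this ratio is uncertain. The log2 difference was 4.68 (SE 0.19) on the log2(RPKM + 0.1) scale, but because wild-type levels are so low it depends on the pseudocount and was 2.08 with a pseudocount of 1 and 6.36 with a pseudocount of 0.01. Gsta2 and Gm10639 both lay below Gsta1 in every knock-out library. Gsta2 was listed at 4.55e-08 RPKM or less in every knock-out library. In wild-type libraries Gsta2 reached 0.0367 RPKM, above Gsta1 in wt1 and wt2. Gm10639 had the higher mean in the knock-out, 0.170 RPKM against 0.00556 RPKM in the wild type, with overlap. It reached 0.248 RPKM in knock-out and 0.0172 RPKM in wild-type libraries. Adding Gsta2 to Gsta1 gave a ratio of estimated reads of 67.3, with the same limit. Gm3776 was not analysed here.

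Gsta4, an alpha class enzyme that detoxifies the lipid peroxidation product 4-hydroxynonenal, measured 10.9, 8.66, 10.5, 8.44 and 10.7 RPKM in ko1 to ko5, against 5.85, 6.44, 7.13 and 7.33 RPKM in wt1 to wt4. All knock-out libraries lay above all wild-type ones, with a log2 difference of 0.55 (SE 0.10). Gsta3, the alpha class enzyme known in mice for conjugating the activated form of aflatoxin B1, measured 0.568, 0.471, 0.415, 0.430 and 0.796 RPKM in ko1 to ko5, against 0.217, 0.194, 0.559 and 0.387 RPKM in wt1 to wt4. The groups overlapped, since wt3 exceeded 3 knock-out libraries. Its log2 difference of 0.58 (SE 0.27) was 0.14 without wt1 and wt2 and 1.03 without wt3 and wt4, so it rests on which wild-type libraries are set against the knock-out. At 10.6 to 37.1 estimated reads in knock-out libraries and 10.6 to 52.5 in wild-type libraries, Gsta3 was the least well measured of these genes in the knock-out.

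The pi class pair held the most abundant cytosolic transferases in knock-out muscle. Gstp1, which besides conjugation is known to bind and restrain the stress kinase JNK, measured 194, 172, 151, 149.6 and 170.2 RPKM in ko1 to ko5, against 83.8, 75.7, 84.1 and 84.1 RPKM in wt1 to wt4. Gstp2, its tandem copy in the mouse, measured 106, 92.4, 102, 81.0 and 106 RPKM in ko1 to ko5, against 25.9, 27.5, 25.3 and 26.3 RPKM in wt1 to wt4. Neither gene overlapped between genotypes. Their log2 differences were 1.02 (SE 0.08) for Gstp1 and 1.88 (SE 0.08) for Gstp2. The sum of both, which depends little on the split of reads between them since their transcripts are of similar length (821 and 797 bases), was 264.7 ± 25.6 RPKM in knock-out and 108 ± 3.35 RPKM in wild-type libraries (SD, n = 5 and 4), a ratio of 2.45. The level of Gstp2 relative to Gstp1 was 0.547, 0.536, 0.679, 0.542 and 0.620 in ko1 to ko5, against 0.309, 0.363, 0.301 and 0.313 in wt1 to wt4. Gstp2 was thus the lower of the pair in all 9 libraries, and its level relative to Gstp1 was higher in every knock-out library than in any wild-type one. This ratio rests on how the authors' processing split the shared reads.

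**Figure D1:**
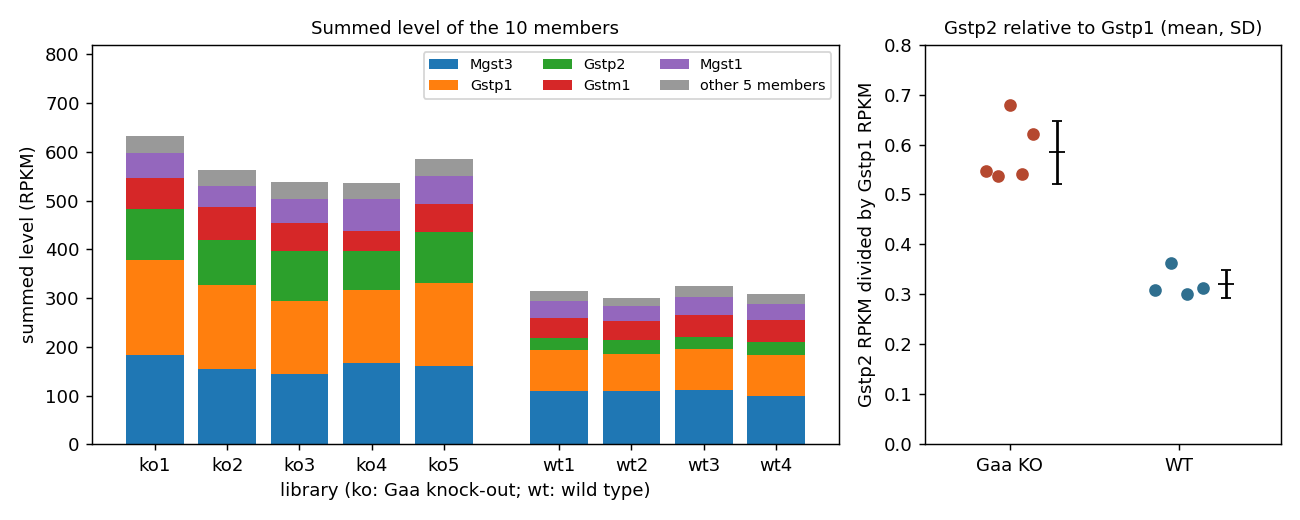
The left panel stacks the RPKM of the 10 transferases in each library, and the right panel gives the Gstp2 level divided by the Gstp1 level per library with the mean and SD of each genotype. The summed level was 535.8 to 632 RPKM in knock-out libraries and 301 to 325 RPKM in wild-type libraries, and the Gstp2 to Gstp1 ratio did not overlap between genotypes.

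Gstm1, a mu class enzyme that is abundant in mouse liver, measured 63.0, 65.8, 56.7, 41.3 and 56.6 RPKM in ko1 to ko5, against 41.1, 40.0, 44.8 and 45.4 RPKM in wt1 to wt4. Here ko4 fell within the wild-type range while the other knock-out libraries lay above it. The log2 difference of 0.39 (SE 0.12) was the smallest of the 10. It was 0.50 without ko4, 0.31 without wt1 and wt2, 0.26 with each library centred on its median and 0.15 once the trend with transcript length was taken out. Gstm1 relative to the mu class gene Gstm2 was 4.54 ± 0.189 in knock-out and 3.40 ± 0.426 in wild-type libraries, without overlap.

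Gstt1, a theta class enzyme that conjugates small halogenated alkanes, measured 5.50, 5.70, 5.11, 5.88 and 5.23 RPKM in ko1 to ko5, against 4.11, 3.31, 4.38 and 3.64 RPKM in wt1 to wt4. Gsto1, an omega class enzyme with thioltransferase and dehydroascorbate reductase activity, measured 13.7, 16.2, 13.9, 13.7 and 16.1 RPKM in ko1 to ko5, against 10.99, 8.23, 10.5 and 9.03 RPKM in wt1 to wt4. Both genes were higher in every knock-out library than in any wild-type one, by 0.50 (SE 0.09) for Gstt1 and 0.60 (SE 0.09) for Gsto1 on the log2 scale.

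Of the microsomal enzymes, Mgst1, which sits in the endoplasmic reticulum and the outer mitochondrial membrane and also reduces lipid peroxides, measured 52.0, 43.2, 49.5, 65.9 and 56.6 RPKM in ko1 to ko5, against 33.5, 29.9, 37.8 and 32.7 RPKM in wt1 to wt4. Mgst3, a relative with glutathione peroxidase activity, measured 184, 155, 144, 166 and 160.5 RPKM in ko1 to ko5, against 109, 109.7, 110.4 and 98.9 RPKM in wt1 to wt4. The genotypes did not overlap for either gene. The log2 differences were 0.66 (SE 0.11) for Mgst1 and 0.60 (SE 0.07) for Mgst3. The ratio of Mgst3 to Mgst1 overlapped between genotypes, at 3.08 ± 0.470 in knock-out and 3.21 ± 0.333 in wild-type libraries (SD, n = 5 and 4).

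**Figure D2:**
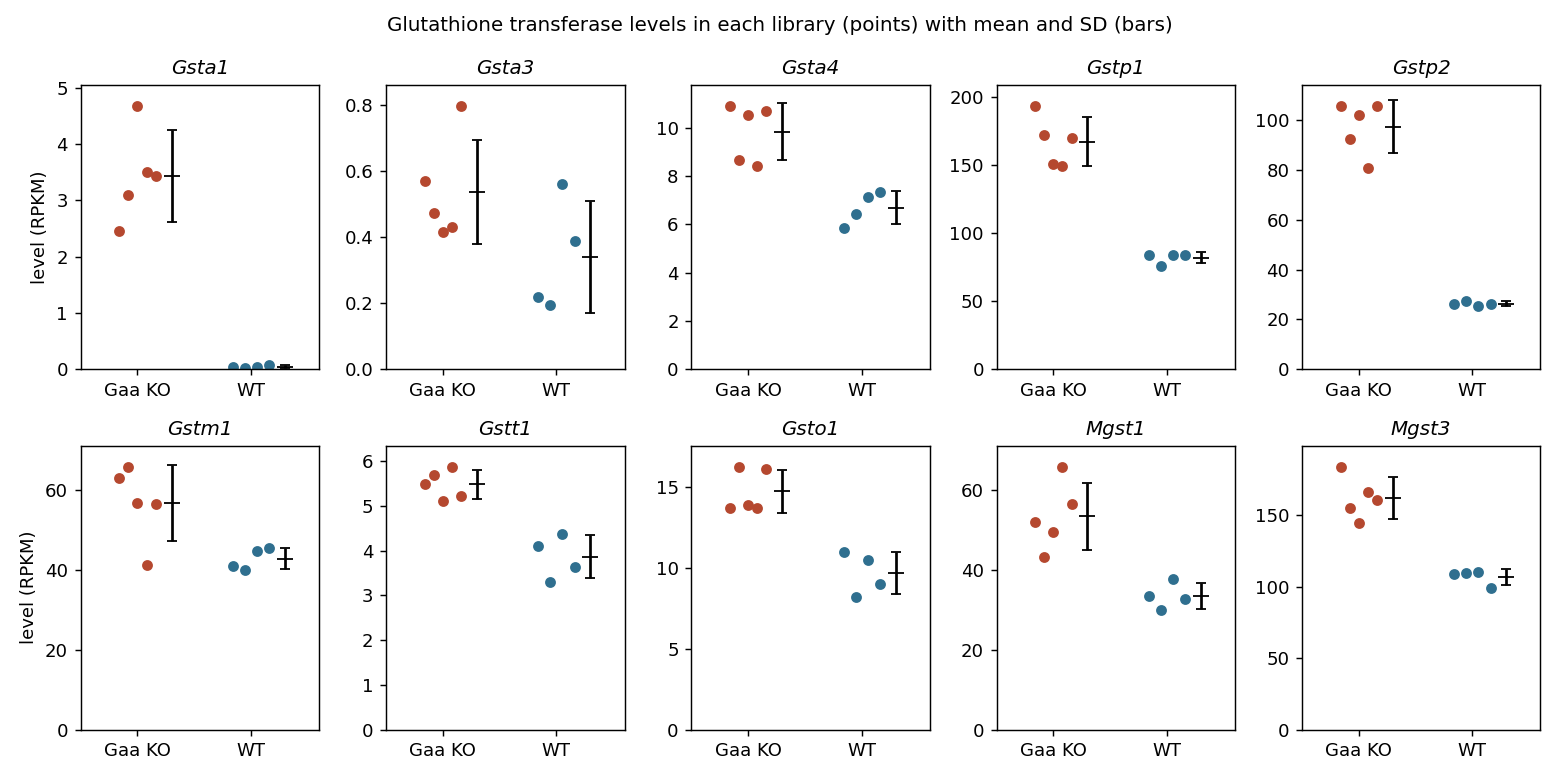
Each panel plots the RPKM of 1 transferase in every library, knock-out left and wild type right, with the mean and SD beside the points and an axis that starts at 0. The genotypes are apart in 8 panels and overlap for Gsta3 and Gstm1.

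Among the 10 genes, Gstp1 and Mgst3 led the order of levels in knock-out muscle and overlapped there, at 167 ± 18.1 and 162 ± 14.7 RPKM. Gstp2 followed at 97.4 ± 10.7 RPKM, then Gstm1 and Mgst1, which overlapped at 56.7 ± 9.50 and 53.4 ± 8.50 RPKM. Below them stood Gsto1 at 14.7 ± 1.32, Gsta4 at 9.85 ± 1.20, Gstt1 at 5.48 ± 0.320, Gsta1 at 3.43 ± 0.813 and Gsta3 at 0.536 ± 0.157 RPKM, each apart from its neighbours. In wild-type muscle Mgst3 stood in front at 107 ± 5.39 RPKM, followed by Gstp1 at 81.9 ± 4.15, Gstm1 at 42.8 ± 2.66, Mgst1 at 33.5 ± 3.27 and Gstp2 at 26.3 ± 0.916 RPKM. Gsto1, Gsta4, Gstt1, Gsta3 and Gsta1 came after these, from 9.69 ± 1.28 RPKM for Gsto1 to 0.0365 ± 0.0266 RPKM for Gsta1, and no neighbours in the wild-type order overlapped. The genotypes thus differed in order: Gstp2 held the third place in knock-out muscle and the fifth in wild-type muscle.

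Summed over the 10 genes, the level was 571 ± 39.6 RPKM in knock-out and 312 ± 10.2 RPKM in wild-type libraries (SD, n = 5 and 4), a ratio of 1.83. The summed RPKM of all genes also differed, at 349239 to 374056 in knock-out and 315337 to 327517 in wild-type libraries. As a share of that total the 10 genes took 0.158% ± 0.00967 in knock-out and 0.0963% ± 0.00326 in wild-type libraries, a ratio of 1.64. Gstp2 made up 17.1% ± 1.50 of the 10-gene sum in knock-out libraries and 8.43% ± 0.562 in wild-type libraries. Gstp1 made up 29.2% ± 1.34 of it in knock-out libraries and 26.3% ± 0.939 in wild-type libraries. Mgst3 made up 28.4% ± 1.69 of the 10-gene sum in knock-out libraries and 34.3% ± 1.78 in wild-type libraries. Gstm1 made up 9.92% ± 1.46 of it in knock-out libraries and 13.7% ± 0.742 in wild-type libraries. Within the 10 genes, the pi class pair thus formed a larger part of the sum in every knock-out library than in any wild-type one. Mgst3, Gstm1 and Gstt1 formed a smaller part. The sum leaves out other transferases, such as Gstm5 at 53.1 RPKM in knock-out and 48.4 RPKM in wild-type libraries.

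The knock-out libraries also differed among themselves. Their coefficient of variation ran from 5.83% for Gstt1 to 29.3% for Gsta3. Library ko4 was the lowest of the 5 for Gsta4, Gstp1, Gstp2 and Gstm1 and the highest for Gstt1 and Mgst1. It also held the highest macrophage marker sum, 128.6 RPKM against 76.3 to 87.6 RPKM in the other knock-out libraries. Its fibroblast marker sum (398 RPKM, against 298 to 325 RPKM) and adipocyte marker sum (219 RPKM, against 146 to 188 RPKM) were the highest of the knock-out libraries too. Without ko4 the log2 difference of Mgst1 was 0.58 and that of Gstp1 1.06, and the relation to the marker sums was not tested.

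In the fit across all genes (limma with Benjamini-Hochberg adjustment over 11032 genes, threshold 0.05), all 9 transferases past the filter were called higher, and of all genes tested 37.0% were called higher and 14.8% lower, 51.8% in either direction. In 8 of the 10 every knock-out library exceeded every wild-type one, as 30.9% of all genes tested did. The transferases were picked on this contrast, so nothing is read from these counts. Their median log2 difference was 0.60 and 6 of the 10 lay between 0.5 and 0.7, while the median over all genes tested was 0.12. Their transcripts are short, at 797 to 1457 bases, and among the third of genes with the shortest transcripts (up to 2136 bases) 49.6% were called higher. With the length trend taken out of each library, the median of the 10 was 0.36, 8 of the 9 were called higher, and 25.0% of all genes were called higher and 24.1% lower. With each library centred on its median, 8 of the 9 were called higher, at a median of 0.47, and 25.1% of all genes were called higher and 25.0% lower. Gstm1 lost its call under both, after quantile normalization and without wt1 and wt2.

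**Figure D3:**
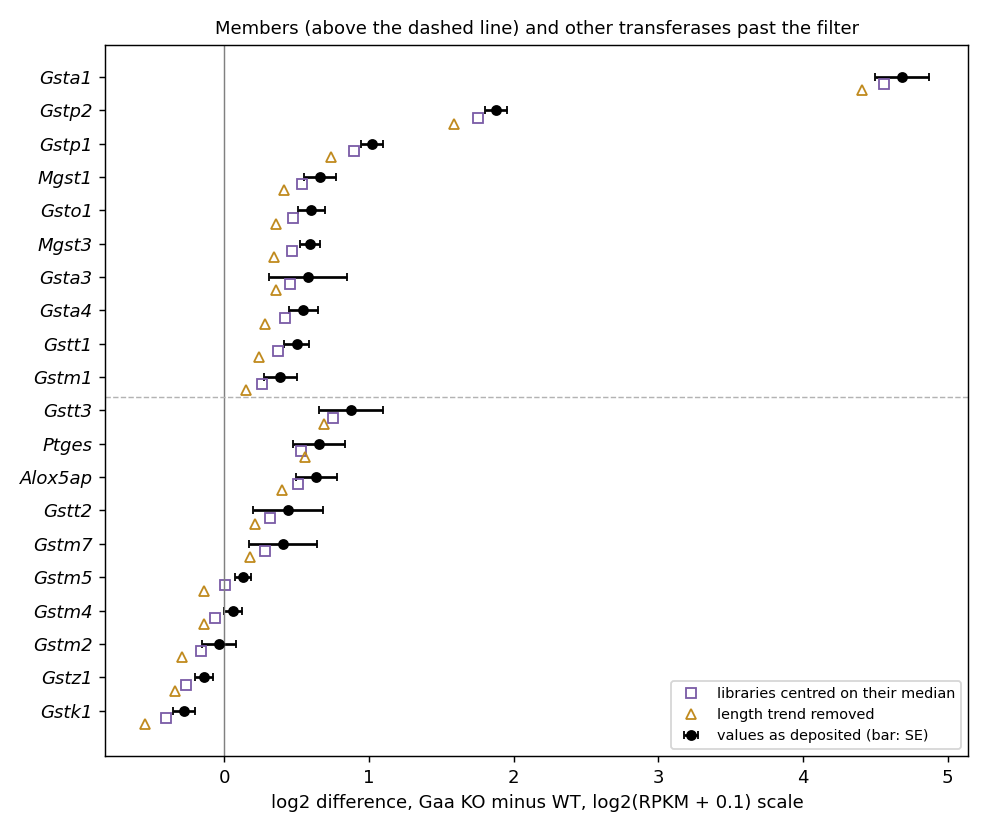
Points give the log2 difference, knock-out minus wild type on the log2(RPKM + 0.1) scale, with bars of 1 SE, for the 10 transferases above the dashed line and the other transferases and relatives past the filter below it. Open symbols repeat the value after centring each library on its median and after taking out the length trend. The 10, which were picked on this contrast, stay above 0 under both. Gstm4 changes sign under both and Gstm5 with the length trend taken out.

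A list of 20 other transferases and MAPEG relatives was set beside them. These are the genes left over when the 10 were picked with the values known, so their share of calls is bound to that choice and is not set against that of the 10. Of the 20, 10 passed the filter, and of these 3 were called higher, 1 lower and 6 not. Gstt3, a theta class gene, averaged 1.56 ± 0.352 RPKM in knock-out and 0.826 ± 0.272 RPKM in wild-type libraries (log2 difference 0.88, SE 0.22, limma adjusted p = 0.0063). Alox5ap, the helper protein of leukotriene synthesis, averaged 2.77 ± 0.457 RPKM in knock-out and 1.75 ± 0.320 RPKM in wild-type libraries (0.64, SE 0.14, adjusted p = 0.0029). Ptges, which makes prostaglandin E2, averaged 0.672 ± 0.147 RPKM in knock-out and 0.386 ± 0.0680 RPKM in wild-type libraries, with overlap (0.66, SE 0.18, adjusted p = 0.0095), and missed the threshold without wt1 and wt2 (adjusted p = 0.086). Gstk1, the kappa class enzyme of mitochondria and peroxisomes, was the one that fell, to 12.3 ± 1.18 RPKM in knock-out libraries, against 14.9 ± 0.712 RPKM in wild-type libraries (-0.28, SE 0.08, adjusted p = 0.0091). The 6 without a call were Gstm2, Gstm4, Gstm5, Gstm7, Gstt2 and the zeta class gene Gstz1, with log2 differences from -0.14 for Gstz1 to 0.44 for Gstt2. Gstt2 was at -0.02 without wt1 and wt2 (adjusted p = 0.95) and at 0.90 and called higher without wt3 and wt4 (adjusted p = 0.005). Gstm5, at 53.1 ± 2.73 RPKM in knock-out and 48.4 ± 2.42 RPKM in wild-type libraries, had a log2 difference of 0.13 (SE 0.06, adjusted p = 0.063). The ratio of Gstm1 to Gstm5 overlapped between genotypes, at 1.07 ± 0.165 in knock-out and 0.886 ± 0.0618 in wild-type libraries. Gstz1 was called lower with each library centred on its median (adjusted p = 0.0027) and with the length trend taken out (adjusted p = 0.00058).

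The enzymes that make and recycle glutathione were read from lists chosen by function, with earlier results of these data known. Beside the counts below, 37.0% of all genes tested were called higher and 14.8% lower. Among the third with the shortest transcripts, 49.6% were called higher. Of 4 tested genes of synthesis and cysteine supply, 2 were called higher and 0 lower, with a median log2 difference of 0.18. Gclc, the catalytic subunit of glutamate-cysteine ligase, averaged 4.48 ± 0.364 RPKM in knock-out and 3.33 ± 0.313 RPKM in wild-type libraries (0.42, SE 0.08, limma adjusted p = 0.0015), and Gss, glutathione synthetase, 3.75 ± 0.359 RPKM in knock-out and 2.59 ± 0.226 RPKM in wild-type libraries (0.51, SE 0.09, adjusted p = 0.00051). Gclm encodes the modifier subunit of the ligase. It averaged 6.21 ± 0.293 RPKM in knock-out and 7.21 ± 0.977 RPKM in wild-type libraries (-0.20, SE 0.09, adjusted p = 0.064). With each library centred on its median Gclm was called lower (adjusted p = 0.0047). The same held without wt2 (adjusted p = 0.017) and without wt1 and wt2 (adjusted p = 0.0039). Without wt3 and wt4 the difference was -0.05 (adjusted p = 0.65), so it rests on which wild-type libraries are set against the knock-out. Slc7a11, which imports cystine, was under the filter at 0.0561 ± 0.0210 RPKM in knock-out and 0.0114 ± 0.00458 RPKM in wild-type libraries.

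Of 13 genes of peroxide reduction and thiol recycling, 10 were called higher and 0 lower, against 37.0% and 14.8% of all genes tested. The list had a median log2 difference of 0.38. Gpx1, the cytosolic glutathione peroxidase, averaged 67.8 ± 6.05 RPKM in knock-out and 27.4 ± 2.08 RPKM in wild-type libraries (1.30, SE 0.08, limma adjusted p = 1e-07). Pgd, which makes NADPH in the pentose phosphate pathway, averaged 9.17 ± 0.356 RPKM in knock-out and 4.19 ± 0.268 RPKM in wild-type libraries (1.11, SE 0.06, adjusted p = 6.3e-08). Gpx4, which reduces lipid hydroperoxides in membranes, averaged 178 ± 15.9 RPKM in knock-out and 99.2 ± 5.86 RPKM in wild-type libraries (0.84, SE 0.07, adjusted p = 2.2e-06). Gsr, which returns oxidised glutathione to its reduced form, averaged 11.7 ± 0.827 RPKM in knock-out and 7.02 ± 0.499 RPKM in wild-type libraries (0.73, SE 0.07, adjusted p = 6.4e-06). None of these 4 genes overlapped between genotypes, and 30.9% of all genes tested lay higher without overlap. The 4 were named for their small adjusted p, so nothing is read from this. Gpx3, Glrx and Glrx5 were the 3 without a call, with log2 differences from -0.06 for Gpx3 to 0.16 for Glrx5.

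Of 10 genes of glutathione breakdown, 2 were called higher and 3 lower, against 37.0% and 14.8% of all genes tested. The list had a median log2 difference of 0.05. Chac1, which cleaves glutathione in the cytosol, fell to 7.82, 8.86, 19.2, 12.5 and 6.13 RPKM in ko1 to ko5, against 53.0, 59.6, 30.5 and 47.4 RPKM in wt1 to wt4 (-2.19, SE 0.29, limma adjusted p = 8.2e-05). It had the lowest log2 difference of all the listed glutathione genes tested, and no library of one genotype reached the other. Oplah, which opens 5-oxoproline released by that breakdown, averaged 6.62 ± 0.781 RPKM in knock-out and 9.29 ± 0.893 RPKM in wild-type libraries (-0.49, SE 0.10, adjusted p = 0.0013). Ggct, another step of this route, averaged 2.06 ± 0.379 RPKM in knock-out and 2.79 ± 0.423 RPKM in wild-type libraries (-0.42, SE 0.15, adjusted p = 0.029) and missed the threshold without ko2, without wt3, without wt4 and with no filter on low values (adjusted p = 0.066). Without wt3 and wt4 together it was -0.24 (adjusted p = 0.25). Dpep1, a membrane dipeptidase, averaged 8.73 ± 1.59 RPKM in knock-out and 5.38 ± 1.22 RPKM in wild-type libraries (0.70, SE 0.16, adjusted p = 0.0038). Anpep, an aminopeptidase, was called higher by a narrow margin (0.46, SE 0.18, adjusted p = 0.049) and lost the call under most of the alternatives. The 5 without a call were Ggt5, Ggt7, Chac2, Lap3 and Cndp2, with log2 differences from -0.20 for Ggt7 to 0.27 for Ggt5.

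Of 5 tested genes of conjugate export, 4 were called higher and 0 lower, against 37.0% and 14.8% of all genes tested. The list had a median log2 difference of 0.30. Abcc5 and Abcc1 are ATP-driven exporters of organic anions. Abcc5 averaged 14.0 ± 0.825 RPKM in knock-out and 9.07 ± 0.541 RPKM in wild-type libraries (0.62, SE 0.06, limma adjusted p = 9.6e-06), and Abcc1, which carries glutathione conjugates, 10.2 ± 0.489 RPKM in knock-out and 8.22 ± 0.340 RPKM in wild-type libraries (0.30, SE 0.06, adjusted p = 0.00086). Abcc10 averaged 0.897 ± 0.106 RPKM in knock-out and 0.548 ± 0.119 RPKM in wild-type libraries (0.63, SE 0.15, adjusted p = 0.004). Abcc4 was the one not called (-0.21, SE 0.11, adjusted p = 0.14), and with each library centred on its median it was called lower (adjusted p = 0.018).

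Of 13 genes of Nrf2 control and its detoxification partners, 8 were called higher and 0 lower, against 37.0% and 14.8% of all genes tested. The list had a median log2 difference of 0.34. Srxn1, sulfiredoxin, averaged 41.2 ± 3.76 RPKM in knock-out and 10.7 ± 1.99 RPKM in wild-type libraries (1.94, SE 0.11, limma adjusted p = 7.5e-08). Nqo1, a quinone reductase long used as an Nrf2 target, averaged 41.5 ± 6.64 RPKM in knock-out and 14.5 ± 1.58 RPKM in wild-type libraries (1.50, SE 0.12, adjusted p = 1.2e-06). Txnrd1, thioredoxin reductase, averaged 28.6 ± 2.14 RPKM in knock-out and 19.6 ± 0.796 RPKM in wild-type libraries (0.54, SE 0.06, adjusted p = 2.7e-05). Mafg, a small Maf partner of Nrf2, averaged 18.1 ± 0.637 RPKM in knock-out and 13.7 ± 1.27 RPKM in wild-type libraries (0.41, SE 0.07, adjusted p = 0.00031). Nfe2l2, which encodes Nrf2, measured 14.3 to 18.6 RPKM in knock-out and 13.0 to 23.1 RPKM in wild-type libraries (0.00, SE 0.15, adjusted p = 0.99). That value lies between opposite ones: without wt1 and wt2 it was 0.29 and called higher (adjusted p = 0.028), and without wt3 and wt4 it was -0.29 (adjusted p = 0.088). Hmox1, another gene known as an Nrf2 target, measured 2.54 to 3.95 RPKM in knock-out and 2.69 to 3.58 RPKM in wild-type libraries (-0.02, SE 0.12, adjusted p = 0.88). Maff, Mafk and Bach1 were not called either; Maff, a small Maf protein, measured 1.23 to 1.79 RPKM in knock-out libraries and 3.53, 5.80, 1.22 and 1.06 RPKM in wt1 to wt4. Its log2 difference of -0.61 (SE 0.40, adjusted p = 0.22) was 0.34 without wt1 and wt2 (adjusted p = 0.077) and -1.56 without wt3 and wt4 (adjusted p = 5e-05). Bach1, a repressor of Nrf2 targets, was at -0.18 (SE 0.08, adjusted p = 0.087) and -0.31 without wt3 and wt4 (adjusted p = 0.018), so that with those libraries left out 2 genes of this list were called lower in place of 0. Both also passed the threshold narrowly without wt4 alone (adjusted p = 0.049 for Maff and 0.047 for Bach1), and Bach1 with each library centred on its median (adjusted p = 0.016). Over the 6 lists, 29 of 55 tested genes were called higher and 4 lower, against 37.0% and 14.8% of all genes tested. The 55 include the 10 tested genes of the list of other transferases and relatives, left over when the members were picked. The pooled counts here are thus partly bound to that choice. With each library centred on its median the list counts were 25 and 8, against 25.1% and 25.0% of all genes. With the length trend taken out they were 23 and 9, against 25.0% and 24.1% of all genes.

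**Figure D4:**
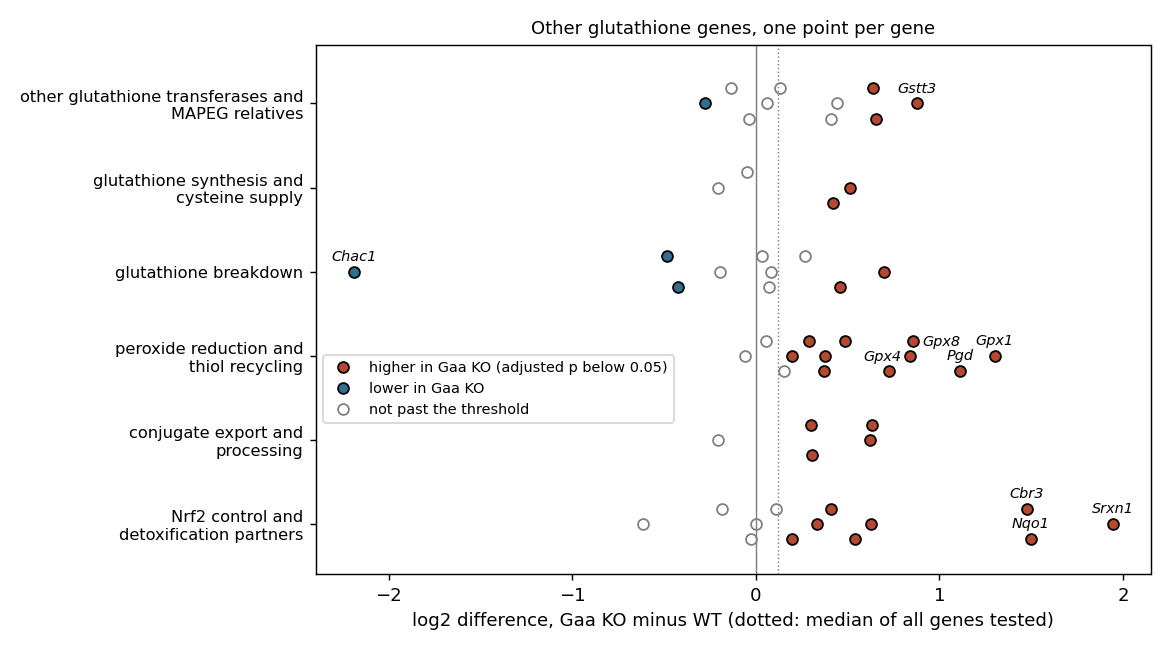
Each point is 1 gene of the listed glutathione functions past the filter, at its log2 difference, knock-out minus wild type; filled points passed an adjusted p of 0.05 and the dotted line marks the median of all genes tested, 0.12. Srxn1, Nqo1, Cbr3 and Gpx1 stand furthest to the right and Chac1 furthest to the left.

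The promoters were searched for the core of the antioxidant response element, TGACNNNGC, on both strands, within 250 bases before and 50 after the start site (RefSeq, GRCm38.p6). Of the 10 genes, 9 had a window, with 11 windows in all. The core lay in 2 of these 11 windows, in Gsta3 and Mgst1, and in 12.39% of all 32851 windows. With an A after the core, it was found in 1 of the 11 windows, in Gsta3, and in 3.04% of all windows. The 250 bases before each of these 2 start sites are shown, since they hold the matches, which are in capitals. In Gsta3 (chr1:21240335-21240584, plus strand) the match lies at -121 to -113 from the start site, and in Mgst1 (chr6:138140277-138140526, plus strand) at -56 to -48, on the reverse strand:
Gsta3: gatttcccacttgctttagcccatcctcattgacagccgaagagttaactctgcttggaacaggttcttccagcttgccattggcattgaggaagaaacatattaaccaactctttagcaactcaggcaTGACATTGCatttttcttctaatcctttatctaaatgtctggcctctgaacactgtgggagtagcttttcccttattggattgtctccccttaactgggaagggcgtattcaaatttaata
Mgst1: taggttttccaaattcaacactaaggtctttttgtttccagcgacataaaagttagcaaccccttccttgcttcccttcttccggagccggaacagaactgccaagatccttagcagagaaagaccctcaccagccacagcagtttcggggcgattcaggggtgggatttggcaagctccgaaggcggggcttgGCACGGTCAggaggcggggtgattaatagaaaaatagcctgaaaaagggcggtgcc
The match is a run of letters and not a shown binding site, and enhancers beyond the window were not searched.

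The genes whose pattern over the 9 libraries lay nearest to that of Gsta1 were Serpinb1a, Dusp4 and Msln, with root mean square differences of 0.37, 0.37 and 0.39 between log2 values centred on each gene's mean. Serpinb1a averaged 19.5 ± 2.43 RPKM in knock-out and 1.05 ± 0.112 RPKM in wild-type libraries. Dusp4 averaged 6.27 ± 0.363 RPKM in knock-out and 0.246 ± 0.0967 RPKM in wild-type libraries, and Msln 3.24 ± 0.940 RPKM in knock-out and 0.0956 ± 0.0225 RPKM in wild-type libraries. For Mgst3, the transferase with the highest mean level over all libraries, the nearest genes were Rpl10a, Ost4 and Psmb3, at 0.04, 0.04 and 0.05.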

How the data were processed

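The authors deposited a single table of RPKM values in which each RefSeq transcript has a line and each library a column; no replicates were pooled. RNA was taken with Trizol and libraries were built from total RNA with the Illumina TruSeq RNA kit, per the labels' protocols. Reads were processed on mm9 with Partek 6.6, Bowtie 0.12.7.0 and TopHat 1.3.2, per the submitters' processing notes, which as used here give neither the role of each tool, nor strand handling, nor the treatment of reads that match several copies.

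The 23665 lines were summed to 18062 genes by symbol; Gsta3 had 2 lines and the other 9 transferases 1 each. Genes with a mean of at least 0.5 RPKM entered a linear model of log2(RPKM + 0.1) on genotype, fitted by limma 3.58.1 (R 4.3.3; moderated with an intensity trend; two-sided) to all 9 libraries. P-values were adjusted by Benjamini-Hochberg over the 11032 genes, with a threshold of 0.05. Log2 differences on this scale understate the change of low genes. In a run on simulated data of 11032 genes with independent normal noise, 62.7% of 67 genes changed by 0.5 on the log2 scale were recovered. Of 67 genes changed by 1, 97% were recovered. Far fewer genes were changed there than were called here (51.8%), so these shares do not describe recovery in this comparison.

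Depth was estimated from low values, 69.8% to 74.1% of which lay within 0.1 of a whole read (chance gives 20%). Too few came out whole for a count test. Python 3.11.15, pandas 2.3.3, numpy 2.4.6, scipy 1.17.1 and matplotlib 3.10.9 were used otherwise. The files use mm9 and the reference GRCm38, so no coordinates are given except for RefSeq promoter windows.

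The 10 genes and all lists were chosen with earlier results of these data known. Of each further list, the text names the called genes with the smallest adjusted p, up to 4, and those needed to read a count of 5 or fewer. Of the list genes, Abcc2, Fgb, Ly6g and Ttr were not analysed here. The values of 1 gene called in the export list are not reported here. Alternatives were other pseudocounts (1 and 0.01), filters (none, and a mean of at least 1 RPKM), centring, quantile normalization, the highest line per gene and leaving out each library. The removal of the length trend and the pairs of wild-type libraries left out were added after seeing the data.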

Additional observations from a re-analysis of the deposited data

Results flagged for a closer look

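In 7 of 136 groups of values (each gene of the family and its listed partners, by genotype), 1 library lay apart from the others by Dixon's criterion, where chance gives about 1 in 20. Among the 10 transferases, Gstp1 was at 75.7 RPKM in wt2, against 83.8 to 84.1 RPKM in the other wild-type libraries. Mgst3 was at 98.9 RPKM in wt4, against 109 to 110.4 RPKM in the others. Both stood below the remaining wild-type libraries and so further from the knock-out. Of the other transferases, Gstm7 was at 0.243 RPKM in wt2, against 0.575 to 0.628 RPKM in the other wild-type libraries, and Gstt3 at 0.423 RPKM in wt2, against 0.916 to 1.02 RPKM. Gclc was at 2.86 RPKM in wt1, against 3.47 to 3.50 RPKM in the other wild-type libraries, and Gpx3, a secreted glutathione peroxidase, at 82.9 RPKM in wt1, against 56.7 to 60.1 RPKM. Gpx8 was at 4.30 RPKM in ko4, against 3.47 to 3.70 RPKM in the other knock-out libraries.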

How the results depend on the processing

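Over 19 alternatives, all 190 log2 differences of the 10 transferases stayed above 0. The 10 were picked on this contrast and the alternatives reuse the same libraries, so nothing is read from that count. The median of the 10 was 0.57 to 0.68 when 1 library was left out and 0.47 with each library centred on its median. It was 0.44 after quantile normalization and 0.36 with the length trend taken out. The ratio of the summed level was 1.57 after quantile normalization and 1.64 as a share of the library total. Of all genes, 2758 were called lower when centred, 3056 after quantile normalization (with 2644 higher) and 2654 with the length trend taken out, against 1632 as deposited; leaving out 1 library gave 5005 to 5554 calls in all, 3545 to 4083 higher and 1400 to 1597 lower. Of the 55 partner genes, 8, 8 and 9 were called lower under these 3 scalings, against 4; leaving out 1 library gave 30 to 33 calls, 26 to 29 higher and 3 to 5 lower. G6pdx, Glrx2, Keap1 and Anpep lost their call under all 3 scalings, Gpx7 under the last 2 and Cbr1 with the length trend taken out; the cause was not tested. Followed by A, the promoter core was found in 1 of the 9 genes with a window. No paired analysis was possible because the wild-type columns carry no number that matches a labelled sample. Depth limits Gsta3 and the wild-type level of Gsta1.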
